A study of Homo sapiens with 12 samples.

Results

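Long cassette exons are internal exons of more than 250 nt that some transcripts of a gene carry and others leave out. They were taken from the splicing events of the series by length alone: an event was a member when it was listed in all 12 libraries, its middle exon exceeded 250 nt and at least 1 of the introns beside it exceeded 500 nt. The rule found 389 events, in 371 distinct exons of 314 genes, among the 4992 events listed in every library. Of these 389 members, 284, in 273 exons of 233 genes, reached a minimum of 10 reads that tell the forms apart in every library and were tested; 105 did not reach it. Such an isoform-specific read fits only the form with the exon or only the form without it. Over the whole series 2695 events were tested.

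The cells were MCF10A, a non-tumorigenic line of human breast epithelial cells, carrying 1 of 3 stable constructs: catalytically dead TIP60 that resists the siRNA (*KD-TIP60), wild-type TIP60 that resists the siRNA (*WT-TIP60), or the empty MSCV vector. TIP60, encoded by KAT5, is a lysine acetyltransferase that modifies histones and other proteins. Each line received TIP60 siRNA or control siRNA and was harvested after 72 h, with 2 libraries in each of the 6 groups. Each construct is represented by 1 line of 1 cell type, and the labels do not say whether the 2 libraries of a group came from separate cultures, so p-values here measure only the spread between these libraries, which may be technical. The comparisons ask how loss of endogenous TIP60 shifts inclusion, and whether either construct changes that shift.

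Most human internal exons are far shorter than 250 nt. They are recognised by exon definition, in which factors bound at the splice sites on both sides of the exon pair across it, and long exons are known to depend more on short flanking introns or on bound enhancer proteins such as SR proteins. A long cassette exon carries a large piece of a message at once: a domain or linker of the protein when its length is a multiple of 3, or a start codon and leader when it lies at the 5′ end of the coding sequence.

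The splice junctions that separate the forms are shown for the 8 exons with an adjusted p under the threshold of 0.05 in the comparison of TIP60 siRNA with control siRNA, with or without a term for the replicate number, and for PAK4, whose change rests on many reads that skip the exon. Each run gives 15 nt on either side of a junction in the messenger RNA, read from GENCODE release 29 transcripts on hg38; capitals mark bases of the cassette exon, and a run without capitals is the junction that skips it.
ABCB8, into the exon at chr7:151033605-151033917 (+): attctcagctgtcagGTACTCTGATGGCTA
ABCB8, skipping: attctcagctgtcagctggccttgggtgcg
DEPDC1, into the exon at chr1:68482046-68482897 (-): ttgtaaacattttggTTGTTTGTGGCTACA
DEPDC1, skipping: ttgtaaacattttgggcttgctgcaacctc
RBM4, into the exon at chr11:66643450-66644140 (+): acacagagtttcaagGCAAACGAATGCACG
RBM4, skipping: acacagagtttcaaggtgggatgtgtgtgg
RBM14-RBM4, into the same exon: gtgacgtggtgaaagGCAAACGAATGCACG
RBM14-RBM4, skipping: gtgacgtggtgaaaggtgggatgtgtgtgg
GIPC1, into the exon at chr19:14482689-14483006 (-), longer upstream intron: gcggcggcggagcagATCTTCTGGTGACCC
GIPC1, skipping, longer upstream intron: gcggcggcggagcaggtgatgttctgcacc
MON1A, into the exon at chr3:49911526-49912011 (-): agggaatggagccagGTGCGGGCCAGGAGG
MON1A, skipping: agggaatggagccagatggctacaaggtag
NUMB, into the exon at chr14:73284081-73284374 (-): aagatgccaagaaagCTGAAACAGATAAGA
NUMB, skipping: aagatgccaagaaagtgccagaagtagaag
PCNX4, into the exon at chr14:60107586-60108327 (+): ctcgggtgacttgagAAACTGCTGTGTTAC
PCNX4, skipping: ctcgggtgacttgaggtttgtggtaaatat
TRERF1, into the exon at chr6:42263260-42263568 (-): cccaacctcaaacagGAGGAAGGAGAGAAG
TRERF1, skipping: cccaacctcaaacaggaaatccccaggaag
PAK4, into the exon at chr19:39172918-39173376 (+): cccggggcccccaagACCATCGTGCGGGGC
PAK4, skipping: cccggggcccccaagggggagcctcatgac

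The members ranged from 251 to 5916 nt, with a median of 405 nt and quartiles of 286 and 696 nt, and 69 exceeded 1000 nt. Both introns exceeded 500 nt in 295 members and 1 intron did not in 94. Among the 284 tested members, the annotation placed 146 exons wholly in coding sequence, 89 partly in it and 17 in 5′ UTRs, 7 in noncoding transcripts, and 25 matched no annotated exon. Of the 146 coding exons, 65.8% had a length that is a multiple of 3. The median GC content was 52.4% over the 259 tested members with an annotated sequence, against 47.0% in cassette exons of up to 50 nt. The 25 exons without a match included all 24 that lie on alternate contigs, which the annotation used does not cover. Of these 24, 20 shared their reads in every library with another alternate-contig member, so they are not independent. Just inside the length limit, the 14 members of up to 255 nt had a median inclusion level of 0.653, and the 14 events of 246 to 250 nt just outside it had 0.580.

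The inclusion level is the estimated fraction of a gene's messages at that event that contain the exon, as the deposited posterior mean of MISO, a program that infers it from the reads that fit each form. The tested members were included mostly: the median of their mean levels was 0.825, against 0.854 over all tested events and 0.334 in the 145 tested cassette exons of up to 50 nt. The exon was near constant, with a mean level above 0.9, in 89 members (31.3%) and nearly always left out, with a mean level under 0.1, in 23 (8.10%). The 17 members in 5′ UTRs stood apart from the others, with a median level of 0.251. Members over 1000 nt had a median level of 0.779.

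The 6 libraries numbered 1 held 1983221 to 2280488 reads that fit a form of any listed event, and the 6 numbered 2 held 1277953 to 1566296. The numbers differed in more than depth: 50.1% to 53.2% of the reads listed with the events fit neither form in the libraries numbered 1, against 64.5% to 65.7% in those numbered 2. Members took 7.37% of the isoform-specific reads of tested events in library 1 of the empty-vector cells with TIP60 siRNA and 8.96% in library 2 of the *KD-TIP60 cells with TIP60 siRNA, below the other 10 libraries. The tables list splicing events only, and a marker gene shows only where it has one: 6 of 18 epithelial markers had events, with a summed 2989 to 5201 reads per 1000000 event reads in TIP60-siRNA libraries and 2721 to 4424 in control-siRNA libraries. Of 12 mesenchymal markers only FN1 had events, at 34.1 to 2469 with TIP60 siRNA and 21.3 to 816 with control siRNA, and none of the 7 immune or 4 endothelial markers was listed. The part of the FN1 difference in the results was not tested.

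The targeted gene checked the labels. KAT5 has 1 listed event, and reads that fit only its form with the exon fell in every pair: 9 and 0 reads in *KD-TIP60 cells, 6 and 2 in *WT-TIP60 cells and 5 and 2 in empty-vector cells with TIP60 siRNA, against 25 and 10, 23 and 8, and 37 and 8 with control siRNA in the same order. The form without the exon marked the constructs. It had 2019 and 36 reads in *KD-TIP60 cells and 3618 and 115 in *WT-TIP60 cells with TIP60 siRNA, against 5 and 0 in empty-vector cells with TIP60 siRNA. Under control siRNA the same form had 2054 and 55 reads in *KD-TIP60 cells and 4543 and 140 in *WT-TIP60 cells, against 18 and 1 in empty-vector cells.

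TIP60 siRNA, averaged over the 3 lines, was set against control siRNA with limma, which fits every event with shared information on spread, and with Benjamini-Hochberg adjustment over all 2695 tested events. The test called 59 events (2.19%) at an adjusted p under 0.05. Of the 284 long exons, 5 were called (1.76%): the exons of ABCB8 and DEPDC1 were included more, and those of RBM4, RBM14-RBM4 and GIPC1 less. Among all events, 0.26% were called higher and 1.93% lower; among the members, 0.704% and 1.06%. At an unadjusted p under 0.05 there were 34 of 284 members, beside 12.3% of all events. With the replicate number as a term, which pairs the libraries (their deviations from the group means correlated), the count was 9 members (3.17%) of 115 events (4.27%), and MON1A, NUMB, PCNX4 and TRERF1, all included less, were added to the 5. A quasi-binomial model of the reads with the replicate term called 19 members (6.69%) of 164 events (6.09%). These 19 are not all separate exons. They include an exon of TAPBP beside alternate-contig exons with nearly the same reads, and overlapping exons of RTN3 with the same skipping reads. The share of long exons called was near that of all events in each of these fits. Leaving out any 1 library left 0 to 3 members called by limma.

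**Figure D1:**
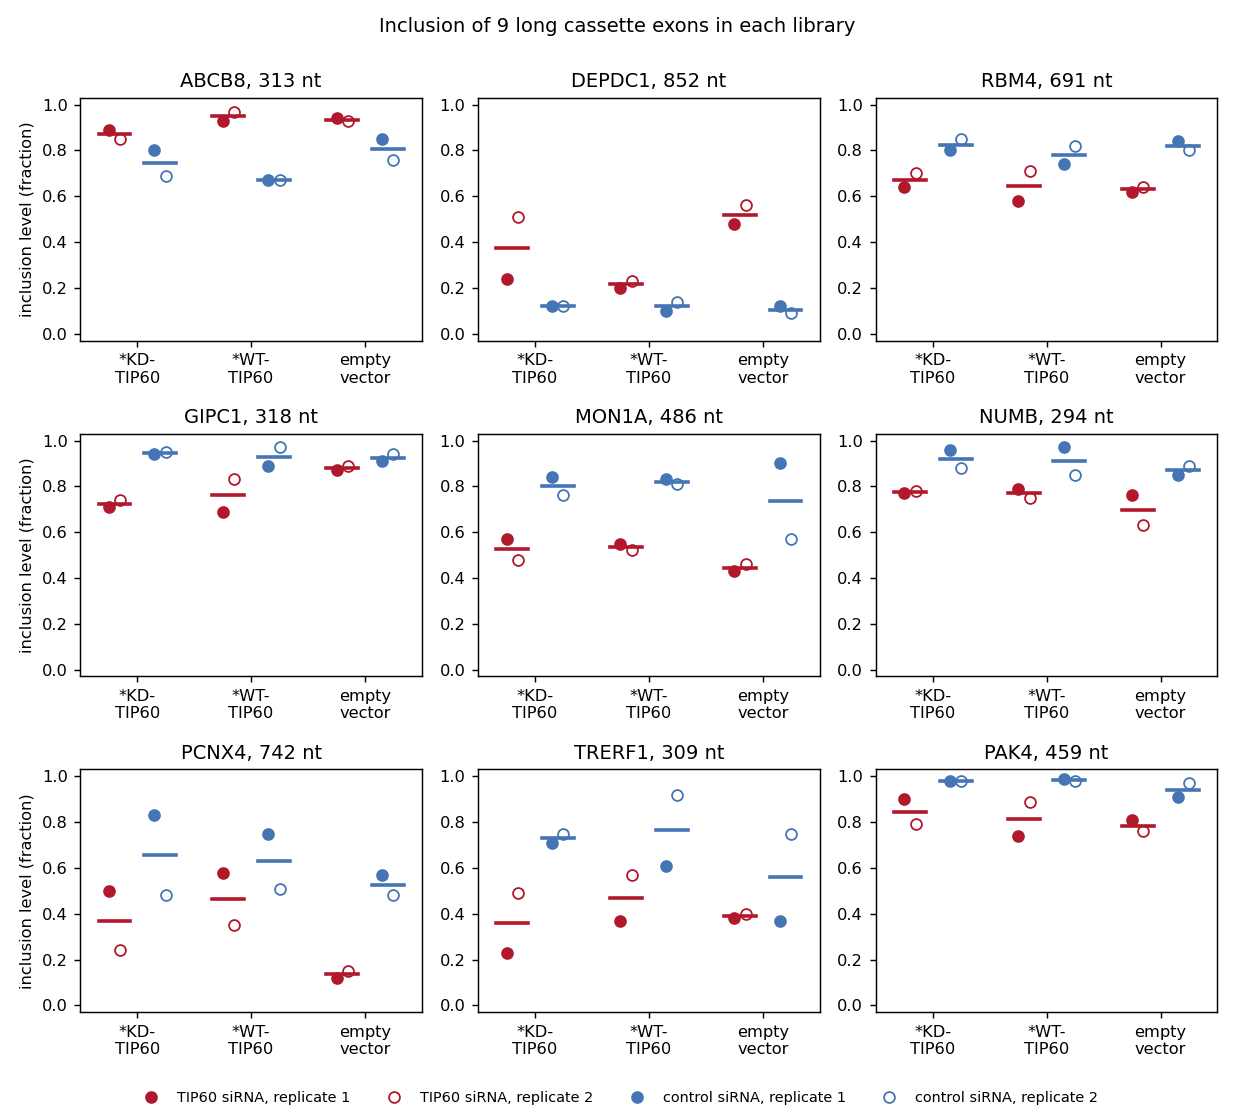
Inclusion level (fraction, y axis) of 9 long cassette exons in each of the 12 libraries, by cell line (x axis); red is TIP60 siRNA and blue control siRNA, filled points are replicate 1 and open points replicate 2, and bars are means of 2. ABCB8 and DEPDC1 lie higher with TIP60 siRNA in each line, RBM4, GIPC1 (event with the longer upstream intron), MON1A, NUMB and PAK4 lie lower without overlap in each line, and PCNX4 and TRERF1 overlap in some lines.

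ABCB8 encodes an ATP-binding cassette transporter of the inner mitochondrial membrane. Its 313-nt exon, wholly coding and not a multiple of 3 in length, was included at 0.89 and 0.85 in *KD-TIP60 cells, 0.93 and 0.97 in *WT-TIP60 cells and 0.94 and 0.93 in empty-vector cells with TIP60 siRNA, against 0.80 and 0.69, 0.67 and 0.67, and 0.85 and 0.76 with control siRNA in the same order. All TIP60-siRNA libraries lay above all control libraries of their line. The mean difference was 0.18 ± 0.024 (SE; adjusted p = 0.0315, limma; higher in 6 of 6 pairs). Reads that skip the exon numbered 13 with TIP60 siRNA and 60 with control siRNA, beside 1088 and 1001 reads with the exon. The called rise therefore went with fewer skipping reads at a similar number of exon reads.

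DEPDC1 encodes a DEP-domain protein that is made in dividing cells. The 852-nt coding exon, a multiple of 3, was mostly left out under control siRNA: its level was 0.24 and 0.51 in *KD-TIP60 cells, 0.20 and 0.23 in *WT-TIP60 cells and 0.48 and 0.56 in empty-vector cells with TIP60 siRNA, against 0.12 and 0.12, 0.10 and 0.14, and 0.12 and 0.09 with control siRNA. The 3 lines separated without overlap, and the spread among TIP60-siRNA libraries (SD 0.163, n = 6) was larger than among control libraries (SD 0.0176, n = 6). The mean difference was 0.26 ± 0.045 (SE; adjusted p = 0.0438, limma; higher in 6 of 6 pairs). The event had 35 skipping and 198 exon reads with TIP60 siRNA, against 122 and 242 with control siRNA, and 17 reads in its thinnest library. An annotated gene, AL138789.1, lies on the opposite strand; the labels name a stranded kit, but whether strand was used in counting is not given in the sources used here.

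RBM4 encodes an RNA-binding protein that itself regulates splicing. Its 691-nt exon, partly coding, had levels of 0.64 and 0.70 in *KD-TIP60 cells, 0.58 and 0.71 in *WT-TIP60 cells and 0.62 and 0.64 in empty-vector cells with TIP60 siRNA, against 0.80 and 0.85, 0.74 and 0.82, and 0.84 and 0.80 with control siRNA. The exon fell by 0.16 ± 0.027 (SE; adjusted p = 0.0377, limma; lower in 6 of 6 pairs). Skipping reads numbered 590 with TIP60 siRNA and 317 with control siRNA, beside 5134 and 6298 exon reads, and every library held at least 623 isoform-specific reads. The same exon is entered from an upstream exon of RBM14 in read-through transcripts. In that event, RBM14-RBM4, the level averaged 0.925 ± 0.024 with TIP60 siRNA and 0.983 ± 0.0082 with control siRNA (SD, n = 6 each). The fall was 0.06 ± 0.0096 (SE, adjusted p = 0.0361, limma), with 39 and 8 skipping reads. Its adjusted p was 0.0536 in the quasi-binomial model with the replicate term, which called RBM4 (0.00671). Without that term the quasi-binomial model did not call RBM4 (0.0681). Limma also lost RBM4 with no read minimum (0.0511), on log2 odds of the level (0.0614) and on the share of exon reads (0.179). Of the 12 limma fits that left out 1 library, 1 called RBM4. The 2 events share their exon reads and are 1 exon, not 2 findings; RBM4 also has a close paralog, RBM4B, with which reads may be shared.

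GIPC1 encodes a PDZ-domain scaffold that links membrane receptors to myosin VI. Its 318-nt exon, partly coding, appears in a pair of events that differ in the upstream exon. The event with the longer upstream intron had levels of 0.71 and 0.74 in *KD-TIP60 cells, 0.69 and 0.83 in *WT-TIP60 cells and 0.87 and 0.89 in empty-vector cells with TIP60 siRNA, against 0.94 and 0.95, 0.89 and 0.97, and 0.91 and 0.94 with control siRNA, a difference of -0.145 ± 0.026 (SE; adjusted p = 0.0438, limma). In the event with the shorter upstream intron and more reads the difference was -0.148 ± 0.030 (SE; adjusted p = 0.0629, limma), which missed the threshold. The call of the first event was lost in the quasi-binomial model with the replicate term (adjusted p = 0.150) and by the read ratio (adjusted p = 0.689, limma). Both events separated in all 3 lines. Skipping reads were few: 20 with TIP60 siRNA and 3 with control siRNA in the first event, 36 and 18 in the second, and all 54 of the second event came from libraries numbered 2.

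Among the exons called only with the replicate term, MON1A had the largest shift. MON1A encodes a subunit of the exchange factor that activates Rab7 on maturing endosomes. Its 486-nt coding exon, a multiple of 3, stood at 0.57 and 0.48 in *KD-TIP60 cells, 0.55 and 0.52 in *WT-TIP60 cells and 0.43 and 0.46 in empty-vector cells with TIP60 siRNA, against 0.84 and 0.76, 0.83 and 0.81, and 0.90 and 0.57 with control siRNA. The difference was -0.283 ± 0.055 (SE; adjusted p = 0.0537, limma) and its adjusted p was 0.0301 with the replicate term; without library 1 of the empty-vector control cells it was -0.23 (adjusted p = 0.0176), and without library 2 of that group -0.34 (adjusted p = 0.00366). Skipping reads numbered 91 with TIP60 siRNA and 23 with control siRNA, beside 693 and 819 exon reads. The shift was close to equal in the 3 lines, at -0.275 in *KD-TIP60, -0.285 in *WT-TIP60 and -0.29 in empty-vector cells. An annotated gene, AC105935.1, lies on the opposite strand.

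NUMB encodes an endocytic adaptor that restrains Notch signalling, and its 294-nt coding exon is a multiple of 3. The level was 0.77 and 0.78 in *KD-TIP60 cells, 0.79 and 0.75 in *WT-TIP60 cells and 0.76 and 0.63 in empty-vector cells with TIP60 siRNA, against 0.96 and 0.88, 0.97 and 0.85, and 0.85 and 0.89 with control siRNA. No line overlapped. The difference was -0.15 ± 0.032 (SE), with an adjusted p of 0.0674 in limma and 0.0313 with the replicate term (0.0511 in the quasi-binomial model with that term), on 45 skipping reads with TIP60 siRNA and 14 with control siRNA.

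PCNX4, which encodes a multi-pass membrane protein of the pecanex family, had a 742-nt exon, partly coding, with levels from 0.12 to 0.58 (median 0.295) with TIP60 siRNA and from 0.48 to 0.83 (median 0.54) with control siRNA. All 6 pairs were lower, yet libraries overlapped in the *KD-TIP60 and *WT-TIP60 lines. Its difference was -0.28 ± 0.086 (SE; adjusted p = 0.207, limma; 0.0375 with the replicate term). Isoform-specific reads of the event with TIP60 siRNA were 0.273 times those with control siRNA after scaling to event reads. Unscaled, there were 191 exon and 81 skipping reads with TIP60 siRNA, against 866 and 116 with control siRNA. Exon reads fall with inclusion itself, so the ratio does not measure the number of messages. Whether the gene's messages were fewer was not tested. In bulk RNA, fewer cells with a message and less message per cell could not be told apart either.

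TRERF1, a zinc-finger transcriptional regulator, had a 309-nt coding exon, a multiple of 3, at 0.23 to 0.57 (median 0.39) with TIP60 siRNA and 0.37 to 0.92 (median 0.73) with control siRNA. It was lower in 5 of 6 pairs, and the empty-vector line overlapped. The difference was -0.28 ± 0.092 (SE; adjusted p = 0.242, limma; 0.0487 with the replicate term). The event was thin, with 17 isoform-specific reads in its poorest library, and had 64 skipping reads with TIP60 siRNA and 26 with control siRNA.

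PAK4 is a serine/threonine kinase that acts downstream of Cdc42. Its 459-nt coding exon, a multiple of 3, had 429 skipping and 5199 exon reads with TIP60 siRNA, against 62 and 7626 with control siRNA; as a share of isoform-specific reads, skipping was 7.62% and 0.806%. Levels were 0.90 and 0.79 in *KD-TIP60 cells, 0.74 and 0.89 in *WT-TIP60 cells and 0.81 and 0.76 in empty-vector cells with TIP60 siRNA, against 0.98 and 0.98, 0.99 and 0.98, and 0.91 and 0.97 with control siRNA. The lines did not overlap, but the difference of -0.15 ± 0.031 (SE) had an adjusted p of 0.0640 in limma and 0.0625 with the replicate term. A quasi-binomial model of the reads themselves called it, with an adjusted p of 0.0135, and 0.00758 with the replicate term. Most of its reads lay in libraries numbered 2, with 131 to 302 exon reads per library in those numbered 1 and 1345 to 2692 in those numbered 2.

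**Figure D2:**
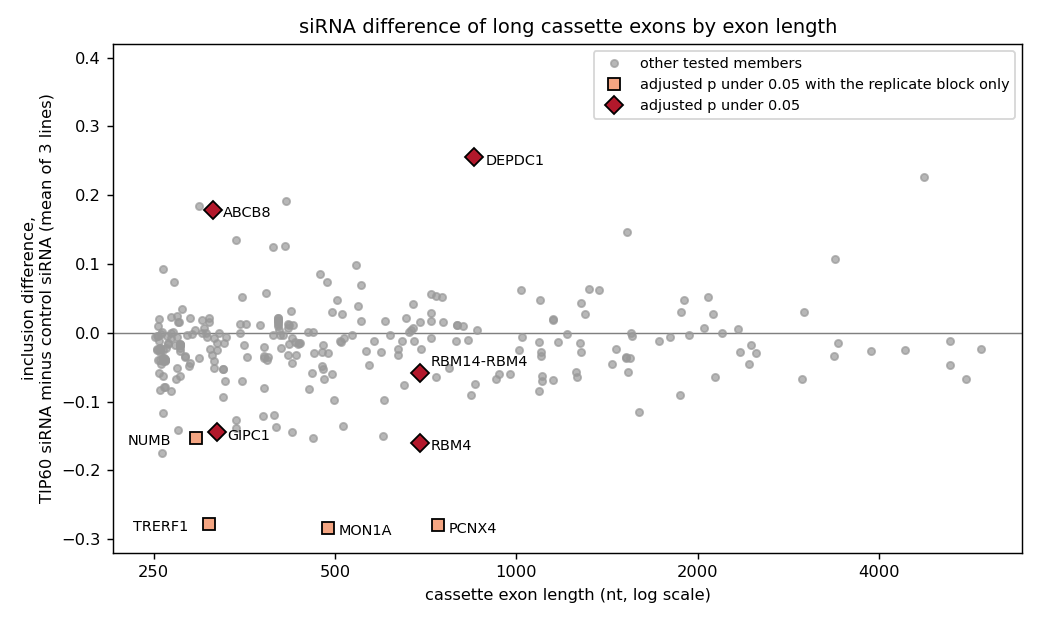
Difference in inclusion level (TIP60 siRNA minus control siRNA, mean of the 3 lines, y axis) of the 284 tested long exons against exon length in nt (x axis, log scale). Red diamonds had an adjusted p under 0.05 in limma (5 events, 313 to 852 nt) and orange squares only with the replicate term (4 events, 294 to 742 nt); no exon over 1000 nt was called in either fit.

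The other members with the smallest p did not pass in either fit. GLMP, a lysosomal membrane protein, had a 258-nt coding exon at 0.665 ± 0.107 with TIP60 siRNA and 0.840 ± 0.055 with control siRNA (SD, n = 6 each; adjusted p = 0.134, limma), with 126 and 25 skipping reads; its *WT-TIP60 libraries overlapped. SEC31A, an outer-coat subunit of the COPII vesicles that leave the endoplasmic reticulum, had a 297-nt exon at 0.748 ± 0.057 and 0.563 ± 0.0999 (SD, n = 6 each; adjusted p = 0.171, limma), and all 43 of its skipping reads came from libraries numbered 1. SPHK2, sphingosine kinase, had overlapping exons of 472 and 413 nt that end at the same base; their differences were 0.09 ± 0.024 and 0.13 ± 0.035 (SE; adjusted p = 0.167 and 0.169, limma) on 1 skipping read with TIP60 siRNA and 2 with control siRNA.

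The 326-nt exon of RARG, a retinoic acid receptor, had a lower level in 5 of 6 pairs but hardly a read that skips it. There was 1 skipping read with TIP60 siRNA and 0 with control siRNA, beside 487 and 922 exon reads, and the level was 0.782 ± 0.068 with TIP60 siRNA and 0.875 ± 0.024 with control siRNA (SD, n = 6 each; adjusted p = 0.176, limma). Its isoform-specific reads with TIP60 siRNA, scaled to event reads, were 0.549 times those with control siRNA.

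Many levels of long exons rested on exon reads alone. The median number of skipping reads per library was 0 in the members and 1.5 over all tested events, and 63 members (22.2%) had no skipping read in any library, against 338 of all 2695 tested events (12.5%). When the exon has no skipping read, the level is set by how its exon reads compare with reads that fit both forms. The 284 members were therefore split at 12 skipping reads, 1 per library on average, a limit chosen after their values were seen. It left 150 members below it and 134 at or above it. The limit counts skipping reads under both siRNAs, which a lower inclusion itself adds to, so the side on which a call falls is no result.

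The direction of the level followed the number of reads more closely where skipping reads were scarce. Part of this is built in, because isoform-specific reads are there nearly all exon reads, from which the level is estimated. In the 150 members with up to 11 skipping reads, 93 had fewer isoform-specific reads, scaled to event reads, with TIP60 siRNA than with control siRNA, and 86 of these (92.5%) had a lower level; of the 57 with as many or more reads, 21 (36.8%) had a lower level. In the 134 members with 12 or more, the level was lower in 54 of 80 with fewer reads (67.5%) and in 28 of 54 with as many or more (51.9%). Spearman's rho across members between the read ratio and the level difference was 0.59 in the first set and 0.26 in the second; members are not replicates, and both values come from the same reads.

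**Figure D3:**
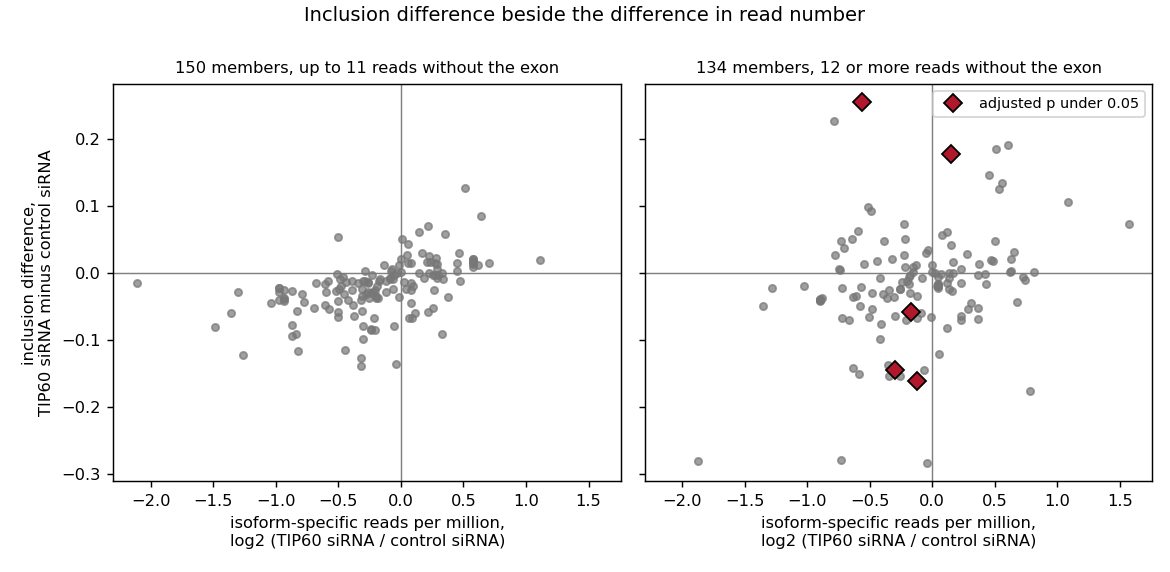
Difference in inclusion level (TIP60 siRNA minus control siRNA, y axis) against the log2 ratio of isoform-specific reads scaled to event reads (TIP60 siRNA over control siRNA, x axis), 1 point per tested long exon. Left, 150 members with up to 11 skipping reads in the 12 libraries, where points run from lower left to upper right; right, 134 members with 12 or more, which hold the 5 members with an adjusted p under 0.05 (red diamonds).

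Over all 284 tested members the level was lower with TIP60 siRNA in 189, higher in 88 and equal in 7, with a median difference of -0.017; over all 2695 tested events 62.2% were lower and the median was -0.0067. The members' lower share was 66.5%. By length it was 79.7% of the 74 members of up to 300 nt (median -0.0225), 66.7% of the 48 over 300 and up to 400 nt, 57.4% of the 61 over 400 and up to 600 nt, 55.0% of the 40 over 600 and up to 1000 nt and 67.2% of the 61 over 1000 nt. Levels were lower in 75.3% of the 89 partly coding exons and in 61.6% of the 146 coding exons. Members with a control level above 0.9 were lower in 74.3% of 101, and those with a control level up to 0.1 in 41.7% of 24. These shares were not tested. The split by control level uses 1 side of the difference that it counts. A level near its upper or lower limit also has little room to move further, so the shares by control level are no result. By the share of skipping reads in place of the level the median difference of the members was 0. That median is no check on the level, because the share cannot differ where no read skips the exon. Of the 284 members, 63 had no skipping read in any library and 157 had none in 6 or more.

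In each line alone, few events of any length were called. By limma, 0 of 284 members were called in *KD-TIP60 cells, 0 in *WT-TIP60 cells and 0 in empty-vector cells, where 1 (0.0371%), 0 (0%) and 1 (0.0371%) of 2695 events were; at an unadjusted p under 0.05 there were 16, 11 and 23 members, or 5.63%, 3.87% and 8.10%, beside 6.75%, 4.3% and 6.6% of all events. With the replicate term no member was called in any line (0.371%, 0.148% and 0.148% of all events), and the quasi-binomial model with that term called 1 in *KD-TIP60 cells, 0 in *WT-TIP60 cells and 1 in empty-vector cells (0.557%, 0.111% and 0.223% of all events). That 1 member was an exon of PTRH2, a mitochondrial hydrolase of peptidyl-tRNA, in both lines. TIP60-siRNA libraries lay below both control libraries in 50 members in *KD-TIP60 cells (17.6%; all events 16.5%), 42 in *WT-TIP60 cells (14.8%; 14.1%) and 49 in empty-vector cells (17.3%; 15.3%), and above them in 18 (6.34%; 6.46%), 24 (8.45%; 5.27%) and 15 (5.28%; 6.46%). The libraries separated in the same direction in all 3 lines in 13 members that were lower (4.58%; 4.12%) and 3 that were higher (1.06%; 0.928%). With a mean difference of at least 0.1 there were 6 lower (2.11%; 2.34%) and 3 higher (1.06%; 0.519%). D2HGDH, a mitochondrial dehydrogenase, had a 384-nt exon, partly coding, among the members of smallest p in *WT-TIP60 cells alone. Its level there was 0.79 and 0.75 with TIP60 siRNA against 0.62 and 0.69 with control siRNA (difference 0.115 ± 0.044, SE; adjusted p = 1.00, limma), with no skipping read in any library and an annotated gene on the opposite strand.

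**Figure D4:**
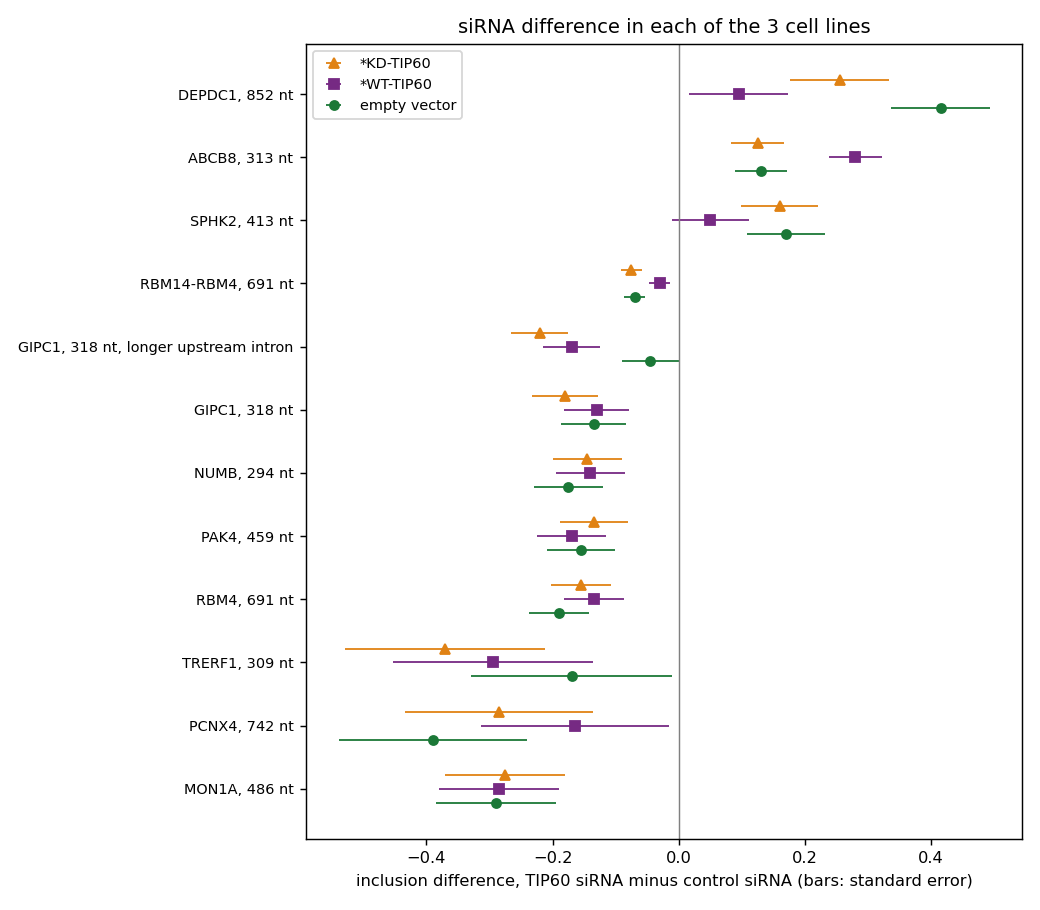
Difference in inclusion level (TIP60 siRNA minus control siRNA, x axis) in *KD-TIP60 (triangles), *WT-TIP60 (squares) and empty-vector cells (circles) for 12 events of long exons that were called in either limma fit or separated in all 3 lines by at least 0.1 (y axis), each with its limma standard error. RBM4, MON1A, NUMB and PAK4 have nearly the same difference in the 3 lines, and DEPDC1 ranges from 0.095 in *WT-TIP60 to 0.415 in empty-vector cells.

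Whether a construct changed the siRNA difference was tested as the difference of differences. No member was called in *KD-TIP60 minus empty vector, *WT-TIP60 minus empty vector or *KD-TIP60 minus *WT-TIP60, by limma with or without the replicate term or by the quasi-binomial model with it; no event of the 2695 was called either (0%). At an unadjusted p under 0.05 in limma there were 7, 8 and 3 members (2.46%, 2.82% and 1.06%), beside 1.34%, 1.71% and 1.19% of all events. DEPDC1 differed by 0.255 in *KD-TIP60, 0.095 in *WT-TIP60 and 0.415 in empty-vector cells, and the *WT-TIP60 minus empty-vector difference was -0.32 ± 0.111 (SE; adjusted p = 1.00, limma). ABCB8 ran the other way, with 0.125 in *KD-TIP60, 0.28 in *WT-TIP60 and 0.13 in empty-vector cells, and a *KD-TIP60 minus *WT-TIP60 difference of -0.155 ± 0.059 (SE; adjusted p = 1.00, limma).

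The siRNA difference of the CFLAR and CAMLG exons was larger in empty-vector cells than in both TIP60 lines, at an unadjusted p under 0.05 in limma. Both exons were named for their small p in *KD-TIP60 minus empty vector. The comparisons with the TIP60 lines use the same empty-vector libraries, so they are not separate results. How many members met both conditions was not counted. CFLAR, whose product c-FLIP restrains caspase-8, had a 418-nt exon at 0.91 and 0.88 in empty-vector cells with TIP60 siRNA and 0.98 and 0.96 with control siRNA, while the *KD-TIP60 cells had 0.97 and 0.95 against 0.97 and 0.96 and the *WT-TIP60 cells 0.98 and 0.94 against 0.97 and 0.98; the difference of differences was 0.07 ± 0.025 for *KD-TIP60 and 0.06 ± 0.025 for *WT-TIP60 (SE; adjusted p = 1.00 for both, limma). CAMLG, which helps insert tail-anchored proteins into membranes, had a 461-nt exon at 0.93 and 0.91 in *KD-TIP60 cells, 0.90 and 0.96 in *WT-TIP60 cells and 0.81 and 0.85 in empty-vector cells with TIP60 siRNA, against 0.89 and 0.93, 0.93 and 0.92, and 0.90 and 0.97 with control siRNA; the difference of differences was 0.115 ± 0.042 for *KD-TIP60 and 0.11 ± 0.042 for *WT-TIP60 (SE; adjusted p = 1.00 for both, limma). The 2 rested on 10 and 56 skipping reads in 12 libraries. Neither passed the threshold in any fit of this comparison.

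The constructs were also compared directly. Under TIP60 siRNA, *KD-TIP60 was set against *WT-TIP60, and 0 of 284 members were called by limma, with or without the replicate term, or by the quasi-binomial model with it (5 members, 1.76%, at an unadjusted p under 0.05; 2.45% of all events; none of 2695 called, 0%). GPR161, an orphan receptor of the primary cilium that represses Hedgehog signalling, had a 418-nt coding exon at 0.76 and 0.70 in *KD-TIP60 cells with TIP60 siRNA and 0.92 and 0.89 in *WT-TIP60 cells, and also lay low in *KD-TIP60 cells with control siRNA, at 0.80 and 0.74, against 0.92 and 0.80 in *WT-TIP60 and 0.91 and 0.84 in empty-vector cells. Its difference under TIP60 siRNA was -0.175 ± 0.051 (SE; adjusted p = 1.00, limma; 0.284 with the replicate term), with no skipping read in any library. ST6GALNAC6, a sialyltransferase, had a 407-nt exon at 0.82 and 0.83 in *KD-TIP60 cells and 0.91 and 0.95 in *WT-TIP60 cells with TIP60 siRNA, a difference of -0.105 ± 0.026 (SE; adjusted p = 1.00, limma). NIN, the centrosomal protein ninein, had a 2139-nt exon at 0.88 and 0.85 against 0.71 and 0.75, a difference of 0.135 ± 0.053 (SE; adjusted p = 1.00, limma).

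**Figure D5:**
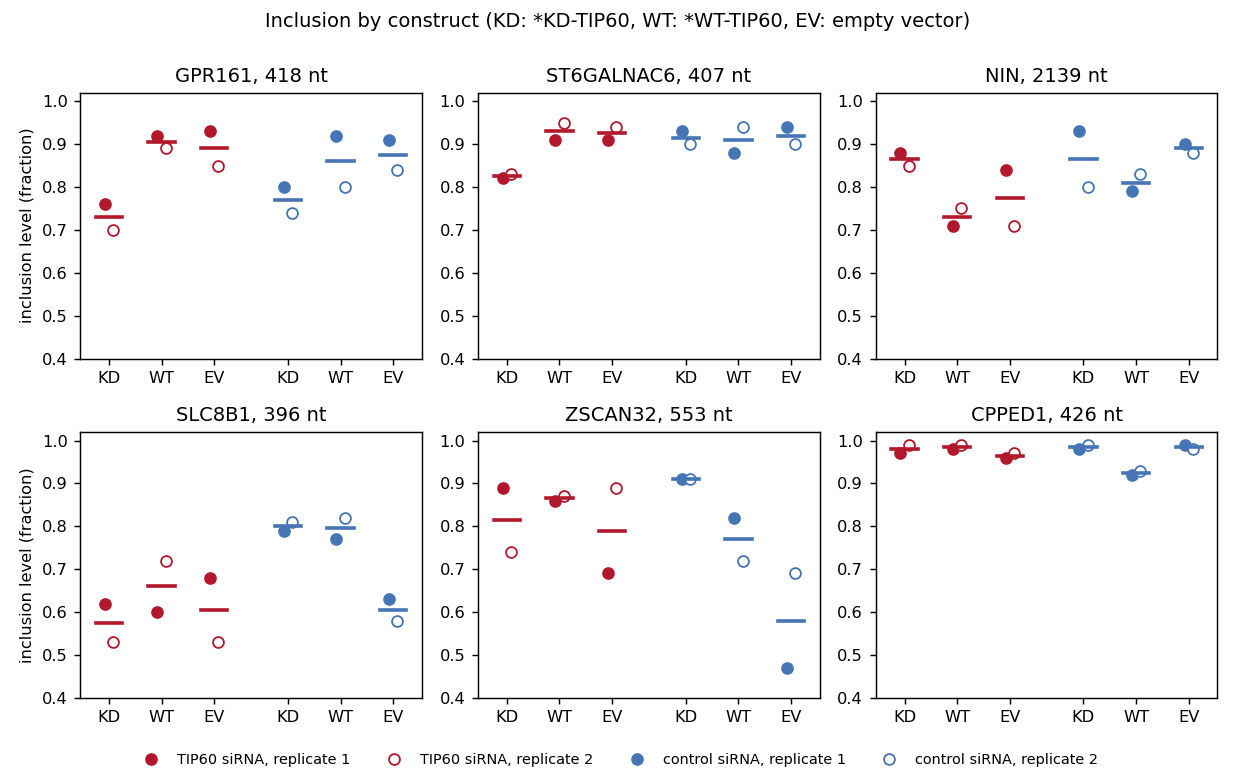
Inclusion level (fraction, y axis, from 0.4) of 6 long exons by construct (x axis: KD, *KD-TIP60; WT, *WT-TIP60; EV, empty vector) with TIP60 siRNA (red, left) and control siRNA (blue, right); filled points are replicate 1, open points replicate 2, bars means of 2. GPR161 has its lowest means in *KD-TIP60 cells under both siRNAs, and CPPED1 dips in *WT-TIP60 cells with control siRNA only, to 0.92 and 0.93.

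Under control siRNA, each TIP60 construct was set against empty vector. For *KD-TIP60, 0 of 284 members were called by limma (3, or 1.06%, at an unadjusted p under 0.05; 0.853% of all events), and for *WT-TIP60, 0 of 284 (7, or 2.46%; 1.6%); neither fit with the replicate term called a member, and no event of the 2695 was called (0%). SLC8B1, the mitochondrial sodium-calcium exchanger, had a 396-nt exon in its 5′ UTR at 0.79 and 0.81 in *KD-TIP60 cells and 0.77 and 0.82 in *WT-TIP60 cells, against 0.63 and 0.58 in empty-vector cells; the differences were 0.195 ± 0.061 and 0.19 ± 0.061 (SE; adjusted p = 1.00 for both, limma). ZSCAN32, a SCAN-domain zinc-finger protein with annotated genes on the opposite strand, had a 553-nt exon at 0.91 and 0.91 in *KD-TIP60 cells and 0.47 and 0.69 in empty-vector cells, a difference of 0.33 ± 0.094 (SE; adjusted p = 1.00, limma). Skipping reads of ZSCAN32 numbered 0 and 0 in these *KD-TIP60 libraries and 0 and 2 in these empty-vector libraries, and its median interval width was 0.37. CPPED1, a phosphatase of the calcineurin-like fold, had a 426-nt exon at 0.92 and 0.93 in *WT-TIP60 cells against 0.99 and 0.98 in empty-vector cells, a difference of -0.06 ± 0.014 (SE; adjusted p = 1.00, limma) on 9 skipping reads against 1. ABCB8 was lower in *WT-TIP60 cells with control siRNA than in empty-vector cells, by -0.135 ± 0.042 (SE; adjusted p = 1.00, limma), at the levels given above. CNP, a phosphodiesterase known from myelin, differed by -0.02 ± 0.0084 (SE; adjusted p = 1.00, limma) in *KD-TIP60 cells.

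The 3 longest exons did not change detectably. The 5916-nt exon of SON, a large nuclear speckle protein needed for splicing of weak introns, was included at 0.935 ± 0.030 with TIP60 siRNA and 0.958 ± 0.012 with control siRNA (SD, n = 6 each; adjusted p = 0.711, limma), on 17433 and 23937 exon reads and 0 and 1 skipping reads. The 5262-nt exon of VCAN encodes a glycosaminoglycan-bearing segment of versican, a matrix proteoglycan, and has an annotated antisense gene. It had levels of 0.868 ± 0.088 and 0.915 ± 0.046 (SD, n = 6 each; adjusted p = 0.866, limma) and no skipping read. The 5589-nt exon of NACA, which makes the long form of the nascent-polypeptide-associated complex alpha subunit known from muscle, split by replicate number and not by siRNA: every library numbered 1 had a level of 0.00, with 222 to 359 skipping reads, and the libraries numbered 2 had 0.47, 0.04 and 0.48 with TIP60 siRNA and 0.41, 0.61 and 0.37 with control siRNA (*KD-TIP60, *WT-TIP60 and empty vector), with 2 skipping reads in all. NACA has near-identical pseudogene copies, so its reads are uncertain.

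Long exons differed between libraries numbered 1 and 2 more often than short ones. The mean level differed by more than 0.1 between the 2 sets in 89 of 284 members (31.3%), against 12 of 145 tested exons of up to 50 nt (8.28%) and 530 of the 2411 other tested events. By the share of skipping reads, a difference over 0.1 was seen in 11.3% of members, 8.97% of exons up to 50 nt and 10.9% of the other events. On this scale 0.1 is not the same limit, because the share takes no account of exon length. A member with no skipping read in any library cannot pass it. Of the 17 members in 5′ UTRs, 10 were past the limit by level, as were 17 of the 26 with a control level over 0.1 and up to 0.5.

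The gene lists held few long exons. Of 76 splicing regulators 3 had a tested member: RBM4, called lower, SON and TRA2A, whose 301-nt exon was at 0.153 ± 0.047 with TIP60 siRNA and 0.135 ± 0.070 with control siRNA (SD, n = 6 each; adjusted p = 0.991, limma). The list of 20 TIP60-complex genes had none. Of 63 cell-cycle genes 5 had a member, none called, with a median difference of -0.015 beside -0.0067 over all tested events; KIF23, a mitotic kinesin, was at 0.145 ± 0.063 and 0.177 ± 0.042 (SD, n = 6 each; adjusted p = 0.819, limma). Of 89 actin, adhesion and matrix genes 4 had 6 tested members, none called (median -0.018), and the 270-nt extra domain A exon of FN1, fibronectin, was at 0.642 ± 0.160 and 0.568 ± 0.181 (SD, n = 6 each; adjusted p = 0.973, limma). The 2 members of chromatin genes are overlapping exons of DAXX (median -0.032), and of 40 apoptosis genes CFLAR and BCL2L12 had members (median -0.042); none was called. The 2 tested members of 59 DNA-damage genes had a median of 0.019 and were not called.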

How the data were processed

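Total RNA of MCF10A cells was made into libraries with a stranded mRNA kit and aligned with STAR to hg38, per the labels' protocols and the submitters' processing notes. For each library the authors deposited a MISO summary of exon-skipping events, with the inclusion level as a fraction (posterior mean to 2 decimals), its 95% interval and read counts by class; the annotation and filters behind them are not given in the sources used, and replicates were not pooled. Samples were grouped by construct and siRNA from their titles.

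Events listed in all 12 libraries with at least 10 isoform-specific reads in each were tested with limma 3.58.1 (R 4.3.3) on the deposited level, with 1 factor of 6 groups, a variance trend on mean log2 reads (offset 0.5), robust moderation, and Benjamini-Hochberg adjustment over all 2695 events within each of 10 comparisons (threshold 0.05). The script was tested on simulated data. The 95% intervals cover read sampling only. Median isoform-specific reads per member were 89 to 168.5 across libraries, and median interval widths 0.16 to 0.25.

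Libraries with the same replicate number deviated together: over 15 pairs of groups the deviations from the group means correlated at 0.706 to 0.779 across events. The numbers were therefore taken to pair the libraries, from this correlation and the shared numbers in the titles, and values with the replicate term are given where they change a call. The counts were also modelled with a quasi-binomial fit. Exon classes, names and sequences came from GENCODE release 29. Named members were those past the threshold in either limma fit, those of smallest p in each comparison (12 in the average siRNA comparison, 6 in each line, 3 in each other), the 3 longest exons, and those whose libraries separated in all 3 lines by at least 0.1; 1 event per exon was taken, and RBM14-RBM4 and the second GIPC1 event were added as called events of the same exons. The members and gene lists were chosen with earlier results of these data known. Alternatives were other read minimums, scales, models, exon lengths and library sets. Of 8712 events listed in at least 1 library, those not in all 12 were left out. The results of some members are not reported here.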

Additional observations from a re-analysis of the deposited data

Results flagged for a closer look

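In 3 of 284 tested members (1.06%; 62 of all 2695 tested events, 2.30%) the TIP60-siRNA libraries lay wholly above the control libraries in 1 line and wholly below them in another. NCEH1, a cholesterol ester hydrolase, had a 253-nt exon whose level differed by 0.075 in *KD-TIP60 cells and -0.135 in empty-vector cells, and the difference of these, 0.21 ± 0.073 (SE), had an adjusted p of 1.00 in limma, on 10 reads in the thinnest library and no skipping read. CPPED1 differed by 0.06 in *WT-TIP60 and -0.02 in empty-vector cells, with a difference of 0.08 ± 0.020 (SE; adjusted p = 1.00, limma). ZSCAN32 differed by -0.095 in *KD-TIP60 and 0.095 in *WT-TIP60 cells, with a difference of -0.19 ± 0.133 (SE; adjusted p = 1.00, limma). None of the 3 passed the threshold.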

How the results depend on the processing

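The count of 5 members called in the average siRNA comparison was 5 with at least 20 reads, on the log2 odds scale, on primary chromosomes and among exons over 300 nt. Equal counts did not always mean the same members. With at least 20 reads, DEPDC1 was too thin to be tested and MON1A was called (adjusted p = 0.0466, limma). On the log2 odds scale RBM4 (0.0614) and GIPC1 with the longer upstream intron (0.0583) were lost. PAK4 (0.0159) and GIPC1 with the shorter upstream intron (0.0368) were called there instead (limma). It was 9 with the replicate block, 2 with no read minimum, 2 by the read ratio, 3 by the quasi-binomial model and 19 by that model with the replicate block. Of the 5, only ABCB8 (adjusted p = 0.0365, limma) passed with no read minimum. None of them passed in the quasi-binomial model without the block, where adjusted p was 0.0541 for ABCB8 and 0.0622 to 0.350 for the others. Leaving out 1 library gave 0 to 3: 0 without *KD-TIP60 control 2, *WT-TIP60 TIP60 siRNA 1, *WT-TIP60 control 1, *WT-TIP60 control 2 or empty-vector TIP60 siRNA 2; 1 without *KD-TIP60 TIP60 siRNA 1, *KD-TIP60 control 1, empty-vector TIP60 siRNA 1 or empty-vector control 2; 2 without *WT-TIP60 TIP60 siRNA 2 or empty-vector control 1; and 3 without *KD-TIP60 TIP60 siRNA 2. The same omissions gave 7 to 34 calls over all events, against 59 with all libraries. Libraries numbered 1 alone gave 0 and those numbered 2 alone 0 (an alternative chosen after seeing the data). The 5 called events kept their direction in these settings; without 1 library the difference was 0.16 to 0.20 for ABCB8, 0.21 to 0.30 for DEPDC1, -0.18 to -0.14 for RBM4, -0.07 to -0.05 for RBM14-RBM4 and -0.17 to -0.12 for GIPC1, with adjusted p from 0.00527 to 0.146 in limma. In empty-vector cells the count of 0 was 1 by the quasi-binomial model with the replicate block and 0 to 1 without 1 library: DEPDC1, at 0.42, passed without *KD-TIP60 TIP60 siRNA 1 (adjusted p = 0.0354) or 2 (0.0340). In *KD-TIP60 cells it was 1 by that model. NACA turned to 0.0017 to 0.035 without empty-vector TIP60 siRNA 1, *WT-TIP60 control 2, *KD-TIP60 control 2 or *KD-TIP60 TIP60 siRNA 1, and SON to 3.15e-05 by the read ratio; neither was called. Members whose level differed by over 0.1 between replicate sets were 31.3%, and 11.3% by the read ratio, a scale on which 0.1 is not the same limit. The replicate block changed no member's call in the other 9 comparisons. The cause was not tested.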

Other observations

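The quasi-binomial model of the reads with the replicate term called 19 members (6.69%; 6.09% of all events), 12 of which are not described in the comparisons; these were chosen after their values were seen. Of the 12, 4 are exons of 261 nt on alternate contigs, with nearly the same reads as the 261-nt exon of TAPBP. PTRH2, a mitochondrial hydrolase of peptidyl-tRNA, had a 1319-nt exon with 330 exon and 305 skipping reads with TIP60 siRNA, against 205 and 853 with control siRNA. Its log2 odds of the form with the exon differed by 2.25 ± 0.180 (SE; adjusted p = 0.00159, quasi-binomial), while its level differed by 0.0633 (adjusted p = 0.791, limma). The 3384-nt exon of MAP4, a microtubule-associated protein, had 3431 exon and 174 skipping reads against 1409 and 290, a log2 odds difference of 1.90 ± 0.224 (SE; adjusted p = 0.00739, quasi-binomial) and a level difference of 0.107 (adjusted p = 0.264, limma). RTN3, a reticulon that shapes the endoplasmic reticulum, had a 2331-nt exon with 103 exon and 943 skipping reads against 52 and 1764, a difference of 1.92 ± 0.265 (SE; adjusted p = 0.0120, quasi-binomial), with a level difference of 0.005 (adjusted p = 0.884, limma). STEAP3, an endosomal ferrireductase, had a 415-nt exon with 564 and 77 reads against 283 and 128, a difference of 1.79 ± 0.315 (SE; adjusted p = 0.0234, quasi-binomial) and a level difference of 0.192 (adjusted p = 0.280, limma). TAPBP, the peptide-loading chaperone tapasin, and PI4KB, a phosphatidylinositol kinase, had lower odds, by -3.43 ± 0.614 and -1.79 ± 0.353 (SE; adjusted p = 0.0239 and 0.0351, quasi-binomial), with level differences of -0.04 and -0.06 (adjusted p = 0.308 and 0.731, limma). None of these 6 passed the threshold on the level.

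Among the 105 members below the read minimum, 4 were lower and 1 was higher with TIP60 siRNA without overlap in all 3 lines (3.81% and 0.952%, near the 4.12% and 0.928% of all tested events); they were noticed after their values were seen. FAM126A, whose product hyccin belongs to a phosphatidylinositol kinase complex, had a 296-nt exon with 69 exon and 174 skipping reads with TIP60 siRNA, against 261 and 76 with control siRNA. Its level averaged 0.43 lower (adjusted p = 0.0139 in limma without the read minimum). The 273-nt extra domain B exon of FN1 had levels of 0.02 and 0.03 in *KD-TIP60 cells, 0.03 and 0.03 in *WT-TIP60 cells and 0.04 and 0.01 in empty-vector cells with TIP60 siRNA, against 0.10 and 0.10, 0.15 and 0.08, and 0.09 and 0.16 with control siRNA (adjusted p = 0.0876 in limma without the read minimum), and skipping was 92.6% of 1378 isoform-specific reads against 68.5% of 666. The 2961-nt exon of VCAN, higher in level by 0.158, had 390 exon and 56 skipping reads against 85 and 115 (adjusted p = 0.296 in limma without the read minimum).

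In some members every library of 1 replicate number had a skipping read and no library of the other number did. Both SEC31A exons had 43 skipping reads, and MFSD13A 25, all in the libraries numbered 1, beside exon reads in both sets of libraries. The GIPC1 exon with the shorter upstream intron had 54, all in those numbered 2.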
